A study of Mus musculus with 3 samples.

Results

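Potassium channel genes of the Kcn family were followed across the cell classes of the newborn mouse sinoatrial node region. Members were all features whose symbol starts with Kcn, goes on with lower-case letters and a digit, and had at least 20 UMIs (unique molecular identifiers, the count of captured transcripts) summed over 3 single-cell libraries. Of 28001 features, 98 matched the name and 68 reached the minimum, while 8 of the other 30 had 0 UMIs. The members were thus chosen by name and by summed abundance, and by no other measured value. Just inside the minimum lay Kcnv2 with 20 UMIs and Kcnh8 with 21, and just outside it lay Kcng4 with 17, Kcnd3os with 16 and Kcnk12 with 12. Kcnj11, which makes a pore of ATP-sensitive channels, had 1 UMI and was not a member.

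By the subunit they encode, the 68 members were 6 Kv1, 2 Kv2, 3 Kv3, 3 Kv4 and 5 Kv7 pores, 5 pores of the EAG and ERG families and 5 modifier subunits. There were also 6 inward rectifiers of other kinds, 2 G-protein-gated and 1 ATP-sensitive inward rectifier, 7 tandem-pore leak channels, 5 calcium-activated pores and 2 sodium- or pH-activated pores. The auxiliary subunits were 7 beta subunits or KChIPs, 4 of the KCNE family and 3 beta subunits of the BK channel, and 2 members were noncoding transcripts.

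All 3 libraries were made with 10x Genomics chemistry from ICR mice at postnatal day 2 with the genotype HCN4H2BGFP, a knock-in in which the gene of the pacemaker channel HCN4 makes green fluorescent protein fused to histone H2B. The GFP-positive library held cells sorted for the reporter, the GFP-negative library held cells sorted against it, and both came from the sinoatrial node region. The third library was not sorted. Its title reads RA while its tissue label names the sinoatrial node region, and since this was not settled it is called RA here. Each group had 1 library, and how many animals it pooled was not stated. No test between groups was therefore possible, and the 95% exact intervals given below cover counting error only.

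The GFP-positive library held 50416748 UMIs in 3346 barcodes, the GFP-negative library 38204709 in 3276 and RA 19975326 in 1450, and the 98 Kcn features had 12360, 13112 and 5530 of these UMIs. After filters 7610 cells were kept, of which 7209 fell into 1 of 10 classes by their share of marker UMIs, 312 into none and 89 into several. The libraries shared 8 to 19 barcodes in pairs. The share of UMIs from haemoglobin genes was 0.0927% in the GFP-positive, 8.89% in the GFP-negative and 12.4% in the RA library. Levels below are CPM, all UMIs of a gene in 1 class of 1 library, scaled to a fixed total of all UMIs those cells had. They count transcripts captured, so fewer transcripts per cell and fewer cells with the transcript in a class cannot be told apart from a level alone.

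Potassium channels let potassium leave the cell, which pulls the membrane back to rest after each action potential and sets how easily the next one starts. In pacemaker cells of the sinoatrial node the ERG current (Kcnh2) is known to shape the diastolic phase, the acetylcholine-gated current through Kcnj3 and Kcnj5 slows the beat when the vagus nerve fires, and the Kir2 rectifiers that hold working muscle at a steady rest (Kcnj2, Kcnj12) are known to carry little current. In vessel walls, Kcnj8 forms ATP-sensitive channels with the sulphonylurea receptor Abcc9, and endothelial cells use calcium-activated channels such as Kcnn4.

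The channel genes divided by cell class. Summed over the 66 members that are not noncoding transcripts, their level was 722, 682 and 538 CPM in cardiomyocytes (GFP-positive, GFP-negative, RA) and 819 and 612 CPM in pericytes (GFP-negative, RA). Smooth muscle cells had 405 and 389 CPM, fibroblasts 274 and 262 CPM, and endothelial cells 127.9, 130.2 and 96.8 CPM. The 41 glial cells of the GFP-negative library had 587 CPM, GFP-positive epicardial cells 138 CPM, macrophages 78.4 and 88.3 CPM, and other leukocytes of the GFP-negative library 190 CPM. Erythroid cells had 18.4 and 25.7 CPM, on a total of which 89.9% and 88.6% was haemoglobin, so their level is not comparable with the others. Cardiomyocytes were the class with the highest pooled level for 16 members, glia for 13, epicardial cells for 10, fibroblasts for 8, endothelial cells, smooth muscle cells and other leukocytes for 5 each, pericytes for 4 and macrophages for 2.

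By the rule that a class of at least 50 cells holds a gene at 20 CPM or more and at 4 or more times its level in all other gated cells, 16 of the 65 members with at least 20 UMIs in gated cells had such a class, against 14.2% of all 15814 features counted the same way. Of these, 6 belonged to cardiomyocytes (Kcnh2, Kcnk3, Kcnj5, Kcng2, Kcnj3, Kcne1), 3 to smooth muscle (Kcnab1, Kcnmb1 and again Kcnk3), 3 to fibroblasts (Kcne1l, Kcnk2, Kcne4), 2 to other leukocytes (Kcnk1, Kcnab2) and 1 each to pericytes (Kcnj8), endothelial cells (Kcnn4) and macrophages (Kcnk13). Where 7 classes could be ranked in both the GFP-negative and the RA library, 27 of 30 members had the same highest class in both (90%), against 7187 of 12532 features (57.3%). The map of levels by class and library shows these blocks.

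**Figure D1:**
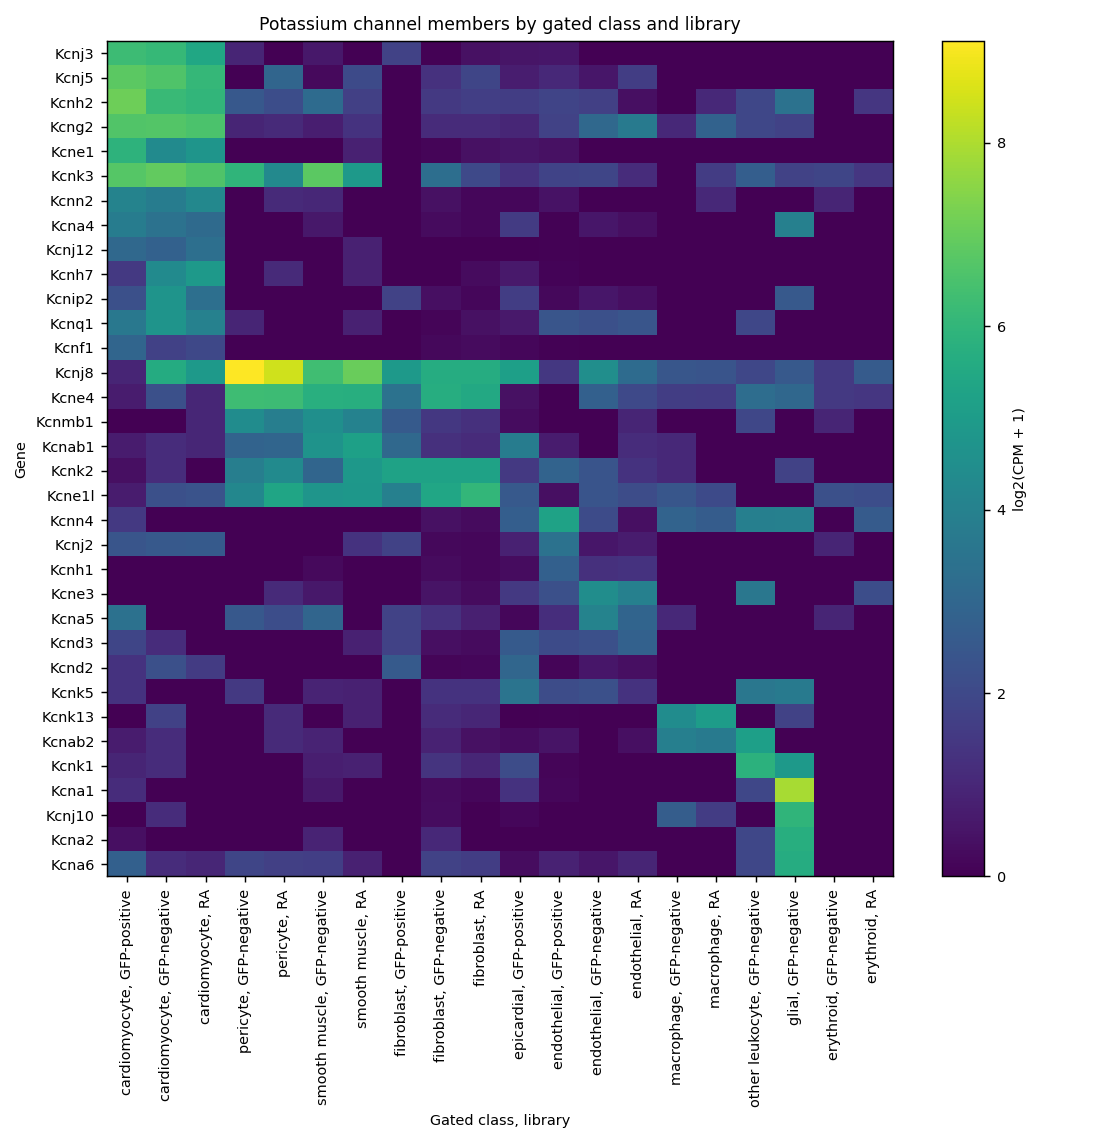
Levels of 34 members (rows) in each gated class of each library (columns) with at least 30 cells, as the log2 of CPM plus 1 shown by colour. Kcnj3, Kcnj5, Kcnh2 and Kcng2 are bright in the 3 cardiomyocyte columns, Kcnj8 is brightest in pericytes, Kcnn4 in the GFP-positive endothelial column and Kcna1 in glia.

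Cardiomyocytes numbered 162, 60 and 71 cells (GFP-positive, GFP-negative, RA), with median depths of 19108.5, 13294.5 and 10258 UMIs. All 8 cardiomyocyte markers were present in each library, at a summed 54463, 61001 and 60723 CPM. The nodal markers Shox2, Tbx3, Isl1 and Tbx18 summed to 558, 13.4 and 7.94 CPM, and the atrial markers Nppa, Bmp10 and Gja5 to 1864, 10585 and 14627 CPM. Just under the cut of the cardiomyocyte gate lay 1 to 4 cells per library. The 8 endothelial markers summed to 425, 38.9 and 63.6 CPM in these cells, the fibroblast markers to 310, 1288 and 891 CPM, and mitochondrial UMIs made up 12.1%, 8.47% and 7.40%. The part of the endothelial and fibroblast markers in the results below was not tested. For mitochondrial UMIs only the scaling was varied. Without mitochondrial and haemoglobin UMIs the median log2 ratio of all features, GFP-positive over RA, went from 0.15 to 0.20.

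The G-protein-gated rectifier genes Kcnj3 and Kcnj5, which together make the acetylcholine-activated channel, were present in all 3 cardiomyocyte groups. Kcnj3 stood at 75.9 CPM (66.7 to 86.0) in GFP-positive, 68.0 (51.4 to 88.3) in GFP-negative and 41.7 (30.1 to 56.4) in RA cardiomyocytes. Kcnj5 stood at 112 CPM (101 to 124), 95.9 (75.9 to 119.5) and 66.5 (51.6 to 84.5). Both genes were thus lowest in RA, with log2 ratios of GFP-positive over RA of 0.85 (0.39 to 1.37) and 0.75 (0.37 to 1.15), short of 2-fold, and the GFP-positive and GFP-negative intervals overlapped. Outside cardiomyocytes Kcnj3 was at 0.31 CPM over all other gated cells, 221-fold lower than its pooled cardiomyocyte level of 67.8 CPM. Kcnj5 was at 1.26 CPM against 100.5 CPM.

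In the GFP-positive library 114 of 162 cardiomyocytes had a Kcnj3 UMI, 137 a Kcnj5 UMI, 151 either and 100 both. In the GFP-negative library 39 of 60 had either and 22 both, and in RA 43 of 71 had either and 21 both. With each cell thinned to 2000 UMIs, 13.0%, 6.67% and 5.63% of cells had a Kcnj3 UMI and 16.05%, 21.7% and 8.45% a Kcnj5 UMI, with intervals that overlapped between the libraries for each gene. In endothelial cells of the GFP-positive library, which have a median depth of 11492 UMIs, 0.643% had a Kcnj3 UMI and 1.53% a Kcnj5 UMI before thinning.

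The RefSeq promoters of this pair and of Kcnj8, the rectifier that marks pericytes, are shown because the results on inward rectifiers turn on these 3 genes. Each runs from 250 bases before to 50 after the annotated start in the build GRCm38.p6, which is not the build the libraries were counted on, and 49 of the 68 members had an entry. Capitals mark matches on either strand to the T-box core AGGTG and the NKX2 core AAGTG, which do not overlap here. The windows are chr2:55435720-55436019 on the plus strand for Kcnj3, chr9:32344295-32344594 on the minus strand for Kcnj5 and chr6:142571565-142571864 on the minus strand for Kcnj8.
Kcnj3: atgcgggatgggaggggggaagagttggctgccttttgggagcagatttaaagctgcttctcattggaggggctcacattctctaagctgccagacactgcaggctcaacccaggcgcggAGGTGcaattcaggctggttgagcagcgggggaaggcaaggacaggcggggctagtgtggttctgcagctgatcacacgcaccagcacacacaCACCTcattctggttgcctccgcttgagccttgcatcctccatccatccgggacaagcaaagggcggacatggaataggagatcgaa
Kcnj5: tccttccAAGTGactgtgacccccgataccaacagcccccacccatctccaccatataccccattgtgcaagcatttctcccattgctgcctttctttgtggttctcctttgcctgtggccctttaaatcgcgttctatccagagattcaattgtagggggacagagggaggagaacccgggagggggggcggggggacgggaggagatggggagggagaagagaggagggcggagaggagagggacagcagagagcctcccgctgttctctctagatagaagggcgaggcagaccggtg
Kcnj8: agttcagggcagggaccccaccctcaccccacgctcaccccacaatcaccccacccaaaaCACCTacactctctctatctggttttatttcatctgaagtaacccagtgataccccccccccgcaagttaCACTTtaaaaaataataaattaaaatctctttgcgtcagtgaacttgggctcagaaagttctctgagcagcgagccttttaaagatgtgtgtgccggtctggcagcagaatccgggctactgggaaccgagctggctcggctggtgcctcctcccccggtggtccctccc
Kcnj3 held AGGTG at bases 121 to 125 and, on the other strand, at 214 to 218. Kcnj5 held AAGTG at 8 to 12, and Kcnj8 held AGGTG at 61 to 65 and AAGTG at 131 to 135, both on the other strand. AGGTG was in 26 of the 49 member promoters (53.1%) and in 51.7% of 27025 promoters of the same length, AAGTG in 22 (44.9%) and 46.5%, the GATA motif AGATAA in 2 (4.08%) and 11.4%, and the MEF2 motif TATTTAT in 1 (2.04%) and 5.75%. A match is a description of the letters in the window.

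Kcnh2, the pore of the rapid delayed rectifier, was the member with most UMIs in GFP-positive cardiomyocytes. Its level was 138 CPM (125 to 151) there, 71.6 (54.5 to 92.4) in GFP-negative and 63.6 (48.9 to 81.2) in RA cardiomyocytes, so the GFP-positive interval lay above both others. The log2 ratio was 1.10 (0.73 to 1.51) over RA and 0.93 (0.55 to 1.36) over GFP-negative. The libraries differ in the kind of cardiomyocyte they hold, and levels within 1 kind are given further on. Its relative Kcnh7, also an ERG pore, was at 1.85 CPM (0.679 to 4.03), 19.4 (11.1 to 31.5) and 29.8 (20.1 to 42.5) CPM. The order of Kcnh7 was thus the reverse of that of Kcnh2, and its 6 GFP-positive UMIs lay in 1 cell, against 13 of 60 and 15 of 71 cells with a UMI in the other libraries. Kcnh7 lies outside the rule for named members and was chosen after its values were seen.

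Kcne1, the KCNE subunit that joins Kcnq1 in the slow delayed rectifier, was at 58.9 CPM (50.8 to 67.9) in GFP-positive, 19.4 (11.1 to 31.5) in GFP-negative and 25.8 (16.9 to 37.8) in RA cardiomyocytes. The GFP-positive level did not overlap the other 2, with log2 ratios of 1.56 (0.86 to 2.44) over GFP-negative and 1.17 (0.59 to 1.84) over RA. Its pore partner Kcnq1 had no such order, at 11.4 (8.03 to 15.7), 25.5 (15.8 to 39.0) and 14.9 (8.34 to 24.6) CPM. In GFP-positive cardiomyocytes 61 of 162 cells had a Kcne1 UMI, 33 a Kcnq1 UMI and 13 both. In cardiomyocytes without a UMI of any pericyte marker, a setting added after seeing the data, the Kcne1 log2 ratio over GFP-negative was 3.10. The noncoding Kcnq1ot1, which overlaps Kcnq1 on the opposite strand, was at 50.3, 23.1 and 29.8 CPM. Whether the counting kept strands apart is not given in the sources used here, so Kcnq1 and Kcnq1ot1 values are uncertain.

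Among the Kv1 pores, Kcna5, which carries the ultrarapid delayed rectifier, had 31 UMIs in 19 GFP-positive cardiomyocytes (9.56 CPM, 6.49 to 13.6) and 0 UMIs in the other 2 groups. With 3 UMIs taken as the limit that a summed class at 0 allows, it was at least 3.21-fold higher than in RA and at least 2.62-fold higher than in GFP-negative cardiomyocytes. The exact intervals of these log2 ratios, which also count the error of the 31 UMIs, began lower, at 1.30 and 1.01. Kcna4, a transient outward pore, was at 13.3, 9.71 and 7.94 CPM with overlapping intervals. Kcna6, which was chosen after its values were seen, had 19 UMIs in GFP-positive and 1 UMI in each other group. Its log2 ratios of 2.01 (-0.09 to 7.94) over RA and 1.72 (-0.38 to 7.65) over GFP-negative had intervals that included equality.

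Kcng2, a modifier subunit that makes no channel alone, had overlapping intervals in the 3 libraries, at 97.7 (87.3 to 109), 101 (80.3 to 125) and 91.4 (73.7 to 112) CPM. Of the Kv4 pores of the transient outward current, Kcnd2 had 5, 3 and 2 UMIs and Kcnd3 had 9, 1 and 0. Their KChIP partner Kcnip2 was lowest in the GFP-positive library, with 3.70 CPM (1.91 to 6.46) in GFP-positive, 25.5 (15.8 to 39.0) in GFP-negative and 8.94 (4.09 to 17.0) in RA cardiomyocytes. Between the GFP-negative and the unsorted RA library Kcnip2 differed by a log2 ratio of 1.47 (0.32 to 2.82) of GFP-negative over RA.

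For the leak channel and the classical inward rectifiers the intervals of the 3 libraries overlapped. Kcnk3, the acid-sensitive leak channel TASK-1, was at 104 (93.4 to 116), 121 (98.8 to 148) and 97.3 (79.0 to 119) CPM. The Kir2 gene Kcnj2 had 14, 4 and 5 UMIs (4.32, 4.86 and 4.97 CPM), and Kcnj12 had 24, 5 and 9 (7.40, 6.07 and 8.94 CPM). Kcnn2, a small-conductance calcium-activated pore, was at 16.03, 13.4 and 17.9 CPM. The log2 ratios of GFP-positive over RA had intervals of -0.23 to 0.44 for Kcnk3, -1.43 to 1.02 for Kcnj12 and -0.95 to 0.70 for Kcnn2. Ratios within those limits are allowed by the counts, with counting error only.

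Kcnj8, the ATP-sensitive rectifier, was nearly missing from GFP-positive cardiomyocytes. It had 3 UMIs there (0.925 CPM, 0.191 to 2.70), against 39 (47.4 CPM, 33.7 to 64.7) in GFP-negative and 30 (29.8 CPM, 20.1 to 42.5) in RA cardiomyocytes. The log2 ratio was -5.47 (-8.02 to -4.02) over GFP-negative and -4.81 (-7.37 to -3.32) over RA. Its partner Abcc9 went with it at 1.23, 19.4 and 16.9 CPM, while Abcc8, the other sulphonylurea receptor, was at 28.7, 37.6 and 38.7 CPM.

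Pericytes hold far more Kcnj8, and the 6 pericyte markers summed to 15.4, 69.2 and 43.7 CPM in the 3 cardiomyocyte groups, with 1 or 2 of the markers at 0 in each (Higd1b and Vtn in GFP-positive). In cells with no UMI of any pericyte marker, a setting added after seeing the data, Kcnj8 was at 0.764 CPM in 131 GFP-positive cells, 62.4 (38.6 to 95.4) in 30 GFP-negative cells and 26.3 (13.6 to 45.9) in 43 RA cells. The log2 ratios were then -6.06 over GFP-negative and -4.84 over RA. The latter rests on 14 UMIs in both sums, under the minimum of 20, so Kcnj8 was not called over RA in that setting. The GFP-negative UMIs lay in 7 of those 30 cells and the RA UMIs in 6 of 43. The plot of cardiomyocyte levels by library puts these genes side by side.

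**Figure D2:**
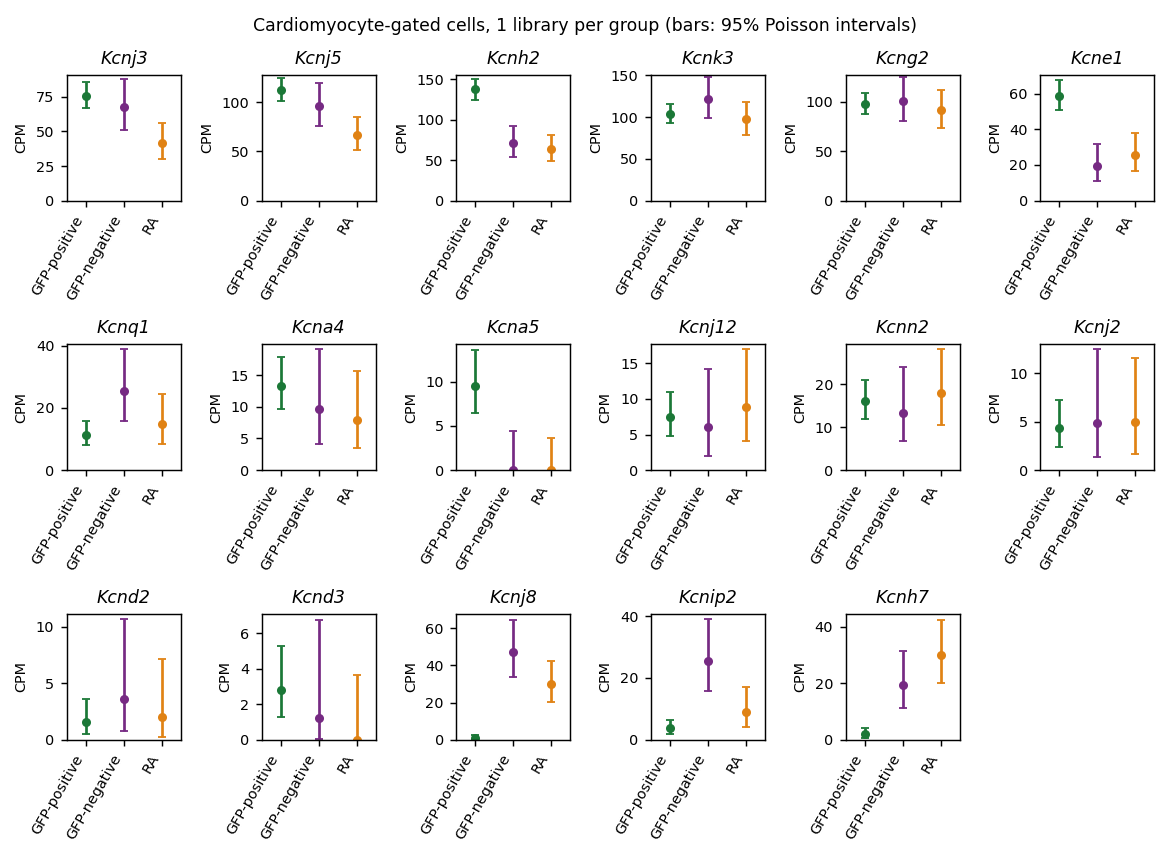
Level in CPM (vertical axes, each from 0) of 17 members in cardiomyocyte-gated cells of the GFP-positive (green), GFP-negative (purple) and RA (orange) library, with 95% exact Poisson intervals as bars. Kcnh2, Kcne1 and Kcna5 are highest in the GFP-positive library, while Kcnj8, Kcnip2 and Kcnh7 are lowest there.

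Counted over all members, 19 had at least 20 UMIs in the GFP-positive and RA cardiomyocytes together. Of these, 5 were at least 2-fold higher in GFP-positive cells (Kcna5, Kcna6, Kcne1 and Kcnh2 among them), where 16.2% of all 9684 features were, and 3 at least 2-fold lower (Kcnj8, Kcnh7, Kcnip2), where 3.55% of all features were. The median log2 ratio was 0.67 over these members and 0.15 over all features. Against GFP-negative cardiomyocytes 6 of 19 were higher, with 12.5% of all features, and 4 lower, with 3.38%. Kcnq1ot1 and Kcnf1 joined the higher members there, Kcnh2 was short of 2-fold, and Kcnq1 joined the lower ones. The median log2 ratio was 0.22 over members and 0.12 over all features. Both comparisons share the GFP-positive library, so they are not independent of each other. The value of Kcnf1, a modifier subunit with 22 UMIs against 2 that was chosen after its values were seen, and the Kcnip2 ratio over RA had intervals that included equality. With 5 UMIs added to each sum in place of 0.5, Kcne1 (0.97) was short of 2-fold over RA, and Kcna5 (0.87) over GFP-negative.

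Between GFP-negative and RA cardiomyocytes, 12 members had enough UMIs. Of these, 1 (Kcnip2) was at least 2-fold higher in GFP-negative cardiomyocytes, with 3.36% of all features, and 0 lower, with 2.94%. The median log2 ratio was 0.25 over members and 0.00 over all features. Of the 16 cardiac members listed for naming, 13 had enough UMIs over RA, and 4 were higher (16.2% of all features), 2 lower (3.55%) and 7 between. Over GFP-negative 3 were higher (12.5%), 3 lower (3.38%) and 7 between. Members with fewer UMIs than that minimum in a comparison could not be read there.

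Genes that work with these channels were counted from a list of 23. Over RA cardiomyocytes 14 had enough UMIs: 5 were at least 2-fold higher in GFP-positive cells, 1 (Abcc9) lower and 8 between, where 16.2% and 3.55% of all features were higher and lower. Their log2 ratios had a median of 0.58, and those of all features 0.15. Adora1, the adenosine receptor that opens the Kcnj3 and Kcnj5 channel, was at 49.0 CPM against 8.499 in GFP-negative and 3.97 in RA. Rgs6, which speeds the closing of that channel, was at 142, 36.4 and 43.7 CPM, and Chrm2, the muscarinic receptor that opens it, at 54.0, 23.1 and 38.7 CPM. Atp1b1, a subunit of the sodium-potassium pump, was at 769, 300 and 335 CPM. Adora1 and Rgs6 thus passed 2-fold over both other libraries, which the channel pair itself did not, though this difference between genes was not tested.

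Within the GFP-positive library the 162 cardiomyocytes were divided by marker UMIs. The subsets were 20 cells gated on the atrial gene Nppa and 57 on Pvalb, Cntn2 and Chit1 (genes of the His-bundle-like set). A further 28 had a UMI of the nodal genes Tbx18 or Isl1, and 57 were others. Shox2, also a nodal marker, was at 832 CPM in the Pvalb-set cells, 360 in the others and 206 in Tbx18 or Isl1 cells. The Tbx18 or Isl1 subset thus does not hold all cells with nodal markers. Kcne1 was at 82.4 CPM (65.8 to 102) in the Pvalb-set cells and 82.8 (66.7 to 102) in the others, but at 9.42 (3.46 to 20.5) in Tbx18 or Isl1 cells and 17.3 (7.46 to 34.0) in Nppa-gated cells. A Kcne1 UMI was found in 24 of 57 Pvalb-set cells, 29 of 57 others and 2 of 28 Tbx18 or Isl1 cells. Of the 6 UMIs in the last subset 5 lay in 1 cell, and the intervals do not cover such spread between cells. Kcna5 was nearly limited to the Pvalb-set cells, with 28 of its 31 UMIs there (27.1 CPM, 18.0 to 39.2). Kcnh2 was also highest there, at 204 CPM (177 to 233) against 129 (108 to 152) in the others, 92.6 (70.5 to 120) in Tbx18 or Isl1 cells and 73.4 (50.8 to 103) in Nppa-gated cells. Kcnf1, chosen after its values were seen, had 17 of its 22 UMIs in the Pvalb-set cells.

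The Tbx18 or Isl1 cells had their own pattern. Kcng2 was at 163 CPM (133 to 198) there and at 76.6 to 86.4 CPM in the other subsets. Kcnk3 was higher in Tbx18 or Isl1 cells (148 CPM, 119 to 181) and Nppa-gated cells (132 CPM, 101 to 169) than in the others (79.2 CPM, 63.5 to 97.6). Kcnj3 and Kcnj5 had overlapping intervals in all 4 subsets. These subsets rest on few cells, and a gate of 1 UMI of Tbx18 or Isl1 is passed more often by deeper cells.

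Nppa-gated cells set against the other 142 gave 15 members with enough UMIs, of which 1 was at least 2-fold higher, with 3.52% of all features, and 3 lower, with 7.48%. The higher one was Kcnmb4, a BK beta subunit with 8 UMIs against 15, chosen after its values were seen (log2 ratio 1.72, 0.23 to 3.01). The lower ones were Kcne1 (-1.85, -3.16 to -0.92), Kcna5 (1 UMI against 30) and Kcnf1 (1 against 21), the last 2 with intervals that included equality, and Kcnh2 lay just short at -0.99 (-1.56 to -0.51). With 5 UMIs added to each sum the Kcna5 log2 ratio was 0.041. The added UMIs weigh more in the smaller total (463191 UMIs in Nppa-gated, 2779907 in other cells), so this value shows no change of direction. The median log2 ratio was -0.23 over members and -0.02 over all features. Kcnj3 lay on the other side, short of 2-fold, at 101 CPM in Nppa-gated and 71.6 CPM in other cells (0.51, 0.01 to 0.97).

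The libraries held these kinds of cardiomyocyte in different numbers. Nppa-gated cells were 20 of 162 in the GFP-positive, 41 of 60 in the GFP-negative and 57 of 71 in the RA library, and the Pvalb set took 0 cells in both others. Levels within Nppa-gated cells alone were therefore added after seeing the data. Kcnh2 was at 73.4 (50.8 to 103), 86.7 (64.3 to 114) and 65.4 (48.5 to 86.2) CPM there, and Kcne1 at 17.3 (7.46 to 34.0), 15.6 (7.13 to 29.6) and 31.4 (20.1 to 46.7) CPM. The higher GFP-positive levels of both genes were thus not seen within this kind of cell. The intervals of Kcnip2 and Kcnh7 also overlapped there between the libraries.

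Kcnj8 in Nppa-gated cells had 1 UMI in GFP-positive (2.16 CPM, 0.0547 to 12.0), 24 in GFP-negative (41.6 CPM, 26.7 to 61.9) and 20 in RA cells (26.1 CPM, 15.97 to 40.4), so its GFP-positive interval lay below both others. Kcnj3 was at 101 (74.6 to 135), 81.5 (59.9 to 108) and 45.8 (31.9 to 63.6) CPM, with the GFP-positive interval above that of RA. With the Nppa-gated cells left out of the GFP-positive library only, the log2 ratios over RA were 1.21 for Kcnh2 and 1.33 for Kcne1, and 2 members were called lower in place of 3.

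**Figure D3:**
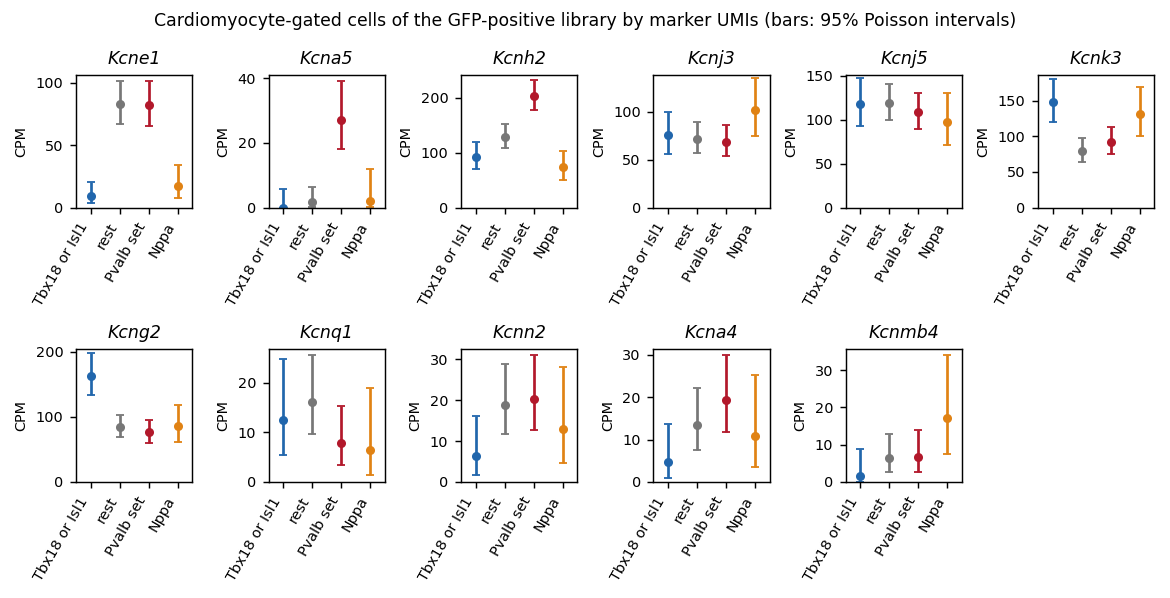
Level in CPM (vertical axes, each from 0) of 11 members in 4 subsets of GFP-positive cardiomyocytes: Tbx18 or Isl1 cells (blue), others (grey), Pvalb-set cells (red) and Nppa-gated cells (orange), with 95% exact Poisson intervals. Kcna5 stands out in the Pvalb-set cells, Kcng2 in the Tbx18 or Isl1 cells, and Kcne1 is low in both Tbx18 or Isl1 and Nppa-gated cells.

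In the vessel wall and connective tissue Kcnj8 was highest in pericytes, at 552 CPM (509 to 599) in the GFP-negative and 349 (311 to 391) in the RA library. It followed in smooth muscle at 78.4 (71.3 to 85.9) and 129 (110 to 150), and in fibroblasts at 49.4 (46.4 to 52.5) and 48.5 (44.1 to 53.1) CPM. GFP-positive epicardial cells had 34.0 CPM (30.3 to 38.0). Abcc9 had the same order, with 203 and 121 CPM in pericytes and 34.7 and 38.8 CPM in smooth muscle. A Kcnj8 UMI was found in 77.9% and 76.8% of pericytes, and in 52.2% (42.6% to 61.7%) and 44.9% (32.9% to 57.4%) of them with each cell thinned to 2000 UMIs.

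Kcne4, a KCNE subunit known to dampen Kv currents, spanned these classes. It was at 76.1 and 75.5 CPM in pericytes, 52.9 and 51.2 in smooth muscle and 49.99 and 43.7 in fibroblasts, and at 3 UMIs or fewer in each cardiomyocyte group. Smooth muscle held the BK beta subunit Kcnmb1, which tunes the calcium-activated BK channel, at 22.4 and 15.5 CPM, and the Kv beta subunit Kcnab1 at 24.4 and 35.7 CPM. Pericytes had Kcnmb1 at 20.4 (12.8 to 30.9) and 13.7 (7.10 to 24.0) CPM, overlapping smooth muscle. Kcnma1, the BK pore itself, had 6 and 2 UMIs in smooth muscle and 0 in pericytes. It was named after its values were seen.

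Kcnk3 had lower levels in RA mural cells, whereas its cardiomyocyte intervals overlapped. In smooth muscle it was at 113 CPM (104 to 122) in the GFP-negative and 28.7 (20.2 to 39.6) in the RA library, and in pericytes at 61.3 (47.4 to 78.0) and 18.3 (10.5 to 29.7). Whether the library difference depends on the class was not tested. In the GFP-negative library 216 cells lay just under the smooth muscle cut and 195 just under that of pericytes, so the border between mural classes and fibroblasts was thickly filled.

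**Figure D4:**
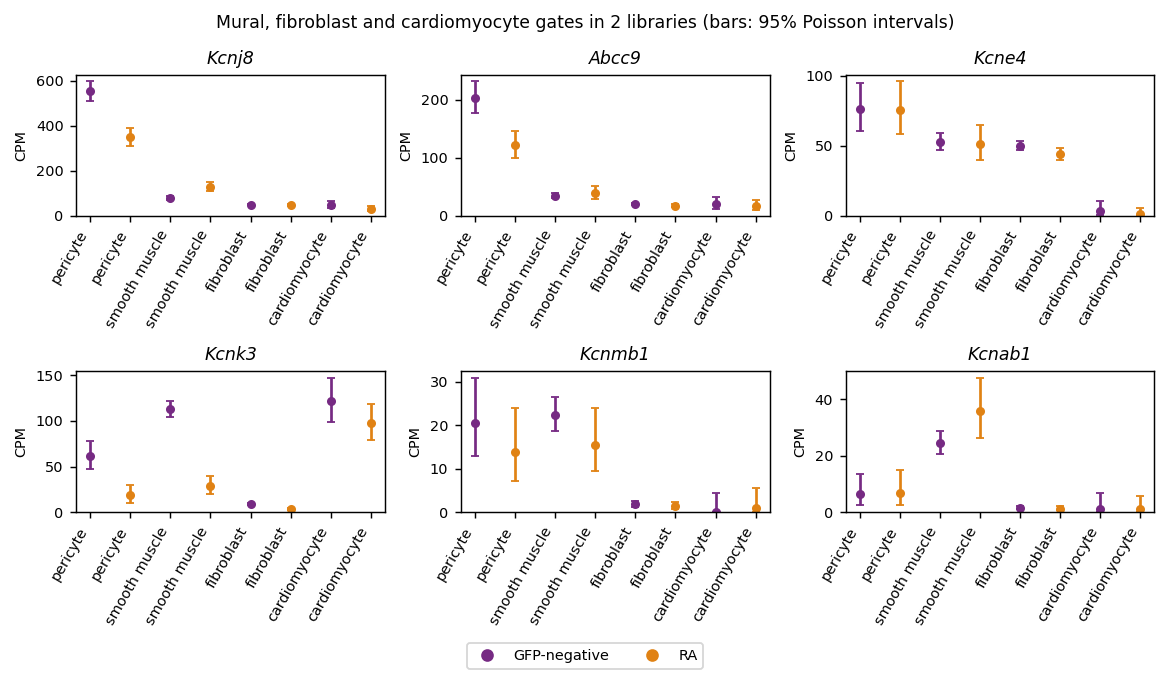
Level in CPM (vertical axes, each from 0) of 5 members and the Kcnj8 partner Abcc9 in pericyte, smooth muscle, fibroblast and cardiomyocyte gates of the GFP-negative (purple) and RA (orange) library, with 95% exact Poisson intervals. Kcnj8 and Abcc9 are highest in pericytes, Kcnab1 in smooth muscle, and Kcnk3 is lower in RA than in GFP-negative mural cells.

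Fibroblasts led for the mechanosensitive leak channel Kcnk2, at 36.6 (34.0 to 39.3) and 37.0 (33.2 to 41.1) CPM in the GFP-negative and RA libraries, and for the KCNE gene Kcne1l, at 41.0 (38.3 to 43.9) and 65.0 (59.97 to 70.4) CPM. In 1681 GFP-negative against 566 RA fibroblasts, 37 members had enough UMIs. Of these, 8 were at least 2-fold higher in the GFP-negative library, with 7.35% of all features, and 2 lower, with 3.04%, and the median log2 ratio was 0.22 over members and -0.06 over all features. The higher ones included Kcnk3, at 8.70 against 2.99 CPM, and the following, which were named after their values were seen. Kcnj15, an inward rectifier, was at 5.37 against 0.749 CPM. The KChIP genes Kcnip4 (72 UMIs) and Kcnip1 (62 UMIs) had 0 UMIs in RA fibroblasts and were at least 10.8-fold and at least 9.34-fold higher, and the Kv1 pore Kcna2 (22 UMIs against 0) at least 3.31-fold, with 3 UMIs as the limit for a class at 0. The exact intervals of the log2 ratios began at 3.10, 2.88 and 1.31. Kcnc2 and Kcnc4, pores of fast Kv3 channels, were the lower ones, and Kcnc2 was at 1.31 against 3.42 CPM. The fibroblast intervals of Kcnj8 and Kcnk2 overlapped between the libraries.

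Endothelial cells made up most of the GFP-positive library, with 2489 cells against 195 in the GFP-negative and 264 in the RA library. Kcnn4, the intermediate-conductance calcium-activated channel, was at 37.2 CPM (35.2 to 39.3) in GFP-positive, 3.23 (1.30 to 6.66) in GFP-negative and 0.302 (1 UMI) in RA endothelial cells. The log2 ratio over RA was 6.36 (4.46 to 12.25), and it was 4.37 with 5 UMIs added to each sum. The Kir2 rectifier Kcnj2 was at 9.83 CPM (8.82 to 10.9) against 1 UMI in GFP-negative and 2 in RA (log2 ratio over RA 3.71, 2.16 to 7.08). With each cell thinned to 2000 UMIs, 5.62% (4.75% to 6.60%) of GFP-positive endothelial cells had a Kcnn4 UMI, 0.513% of GFP-negative and 0 of 264 RA cells (up to 1.39%). In fibroblasts, before thinning, 0.416% and 0.353% had one.

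Of 30 endothelial members with enough UMIs, 12 were at least 2-fold higher in GFP-positive than in RA cells, with 13.5% of all features, and 7 lower, with 5.86%. The higher ones included Kcnn4, Kcnj2, the leak channel Kcnk2 (6.52 against 1.51 CPM) and the EAG pore Kcnh1 (5.90 against 1.51 CPM, named after its values were seen). Kcnn3, a small-conductance relative of Kcnn4, had 90 UMIs against 0 and was at least 2.81-fold higher against the same limit of 3 UMIs (interval from 1.16 on the log2 scale). It was chosen after its values were seen, as was Kcnip3. Kcnip3, with 22 UMIs against 0, gives no such bound above 1. The subsets behind these sums differed: venous-marker cells numbered 467 in GFP-positive against 6 in RA, arterial 205 against 4, lymphatic 166 against 0, and capillary 219 of 2489 against 71 of 264. In the GFP-positive library Kcnj2 was highest in venous cells, and Kcnk2 in venous and capillary cells. Capillary cells made up a larger share of the RA endothelial cells. The part of the subsets in the calls was not tested. The median log2 ratio was 0.84 over members and 0.04 over all features, and 0.53 and 0.02 with genes at 0 UMIs set to their bound.

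Lower in GFP-positive endothelial cells were Kcna5 (1.27 against 6.64 CPM), Kcng2 (2.48 against 12.7), Kcnj8 (1.78 against 8.15), Kcne1l (0.311 against 3.32), and Kcne3, a KCNE subunit named after its values were seen (3.67 against 14.8). In GFP-negative endothelial cells Kcna5 was at 15.7, Kcnj8 at 21.7 and Kcne3 at 21.2 CPM. The pericyte markers summed to 14.4, 94.7 and 65.2 CPM in the endothelial groups (GFP-positive, GFP-negative, RA) and the fibroblast markers to 867, 1424 and 1323 CPM, while the cardiomyocyte markers summed to 413, 194 and 408 CPM. The part of these markers' cells in the Kcnj8, Kcne1l and Kcng2 levels was not tested.

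Endothelial subsets by marker UMIs showed where these genes lay. In the GFP-positive library Kcnn4 was highest in arterial-marker cells at 85.7 CPM (76.1 to 96.2), followed by endocardial (52.0, 46.3 to 58.1), venous (42.8, 37.7 to 48.4) and capillary cells (18.9, 14.6 to 24.1), and lowest in lymphatic cells (3.05, 1.23 to 6.28). The endocardial and venous intervals overlapped. Kcnj2 was highest in venous-marker cells at 20.9 CPM (17.4 to 24.9). Kcnk2 was highest in venous and capillary cells, at 16.3 and 14.0 CPM, against 0.298 to 4.96 CPM elsewhere.

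Kcne3 was highest in the arterial subset of that library, at 13.7 CPM (10.0 to 18.3), and Kcnd3, a Kv4 pore, in the endocardial subset, at 7.79 (5.70 to 10.4). In 35 endocardial-marker cells of RA, Kcnd3 was at 23.7 CPM (9.51 to 48.8) from 7 UMIs. Among the subsets with at least 30 cells, Kcna5 was highest in capillary-marker cells of each library, at 4.36 CPM (2.44 to 7.19) in GFP-positive, 29.8 (19.9 to 42.8) in GFP-negative and 12.1 (6.43 to 20.6) in RA, where the interval overlapped that of cells with no subset marker (2.23 to 9.28). Kcnn4 had 0 UMIs in the capillary cells of both other libraries, with upper limits of 3.79 and 3.43 CPM, against 18.9 CPM in GFP-positive. The difference in Kcnn4 between libraries was therefore present within 1 marker subset.

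**Figure D5:**
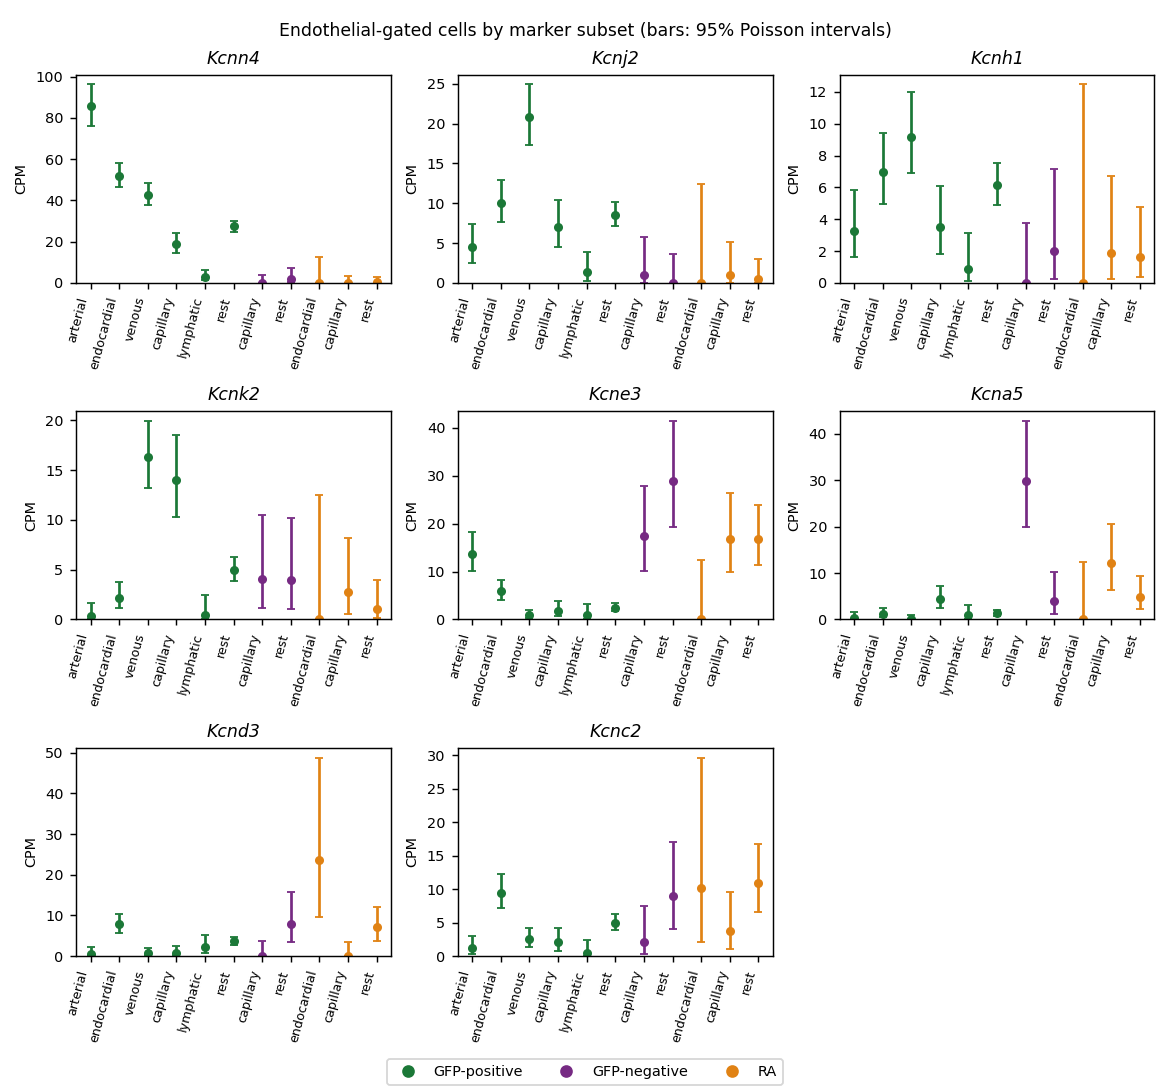
Level in CPM (vertical axes, each from 0) of 8 members in endothelial-gated cells by marker subset and library (GFP-positive green, GFP-negative purple, RA orange), for subsets of at least 30 cells, with 95% exact Poisson intervals. Kcnn4 is highest in the GFP-positive arterial subset and near 0 in the other libraries, and Kcna5 is highest in capillary cells.

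The epicardial gate was filled by the GFP-positive library, with 505 cells. With levels pooled over libraries, epicardial cells led for the Kv4 pores Kcnd2 and Kcnd3, both scarce in cardiomyocytes. GFP-positive epicardial cells had Kcnd2 at 7.001 CPM (5.39 to 8.94) and Kcnd3 at 5.03 CPM (3.68 to 6.71), though RA endothelial cells had Kcnd3 at 6.03 CPM. The GFP-positive epicardial cells held Kcnab1 at 13.2 CPM. Macrophages held the leak channel Kcnk13 at 20.7 (12.5 to 32.3) and 31.6 (21.3 to 45.0) CPM in the GFP-negative and RA libraries. The other leukocytes of the GFP-negative library (53 cells) held Kcnk1, a weakly conducting leak channel, at 56.6 CPM and the Kv beta subunit Kcnab2 at 34.0 CPM.

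The 41 glial cells, all from the GFP-negative library, were too few for the class rule, and their genes were named after their values were seen. They held the Kv1 pore Kcna1 at 244 CPM (198 to 296) in 27 cells, the glial inward rectifier Kcnj10 at 60.9 (39.4 to 89.96), Kcna2 at 51.2 and Kcna6 at 48.8 CPM. Kcna1 had 31 UMIs in all other gated cells, against 100 in these 41 cells. Glial markers in the GFP-positive and RA libraries gave 0 cells in the gate.

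Over 17 class and library points with at least 50 cells each, the genes whose CPM went most like that of Kcnj3 were Hfe2 (Spearman rho 0.99), Sdsl (0.92), Erbb4 (0.92), Usp47 (0.91) and Abcc8 (0.91), among 12446 features. For Kcnj8 they were Ccdc112 (0.93), Abcc9 (0.92), Rhox5 (0.91), Col6a2 (0.90) and Syt5 (0.90). The rho of Kcnj3 with its channel partner Kcnj5 was only 0.46, and with Kcnh2 it was 0.73. Kcnj3 had 344 UMIs in cardiomyocytes and 29 in all other gated cells, so its order among the other classes rests on few UMIs. The points share 3 libraries and their depths, so the values are descriptions with no test.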

How the data were processed

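For each of the 3 libraries the authors deposited a matrix of unnormalized UMI counts, made with Cell Ranger and the build mm9 per the submitters' processing notes. The version and any filter on cells are not given in the sources used here. Barcodes with fewer than 500 genes or more than 50% of UMIs from mitochondrial genes were removed. Cells were gated into 10 classes by the share of marker UMIs per 10000, with cuts of 16 to 128 set from histograms of these shares, and cells that passed more than 1 family of gates were left out. The order among stromal gates was epicardial, smooth muscle, pericyte, fibroblast. No doublet caller was run. Of the markers, 1 symbol was not found under 1 identifier.

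UMIs were summed per class and library and given as CPM with exact Poisson intervals. Log2 ratios carry 0.5 UMIs added to each sum and exact conditional binomial intervals. Called means at least 2-fold with at least 20 UMIs in both sums together. Ratios were computed over all features. The ratio calculation was tested on simulated data. For shares of cells with a UMI, each cell was thinned to 2000 UMIs, and no cell was too shallow in the classes given. Members named were a list of cardiac channels and those that passed the class rule. Others are said to be chosen after their values were seen. Some members are counted but not reported here by name. The members and lists were chosen with earlier results of these data known. Python 3.11.15, numpy 2.4.6, scipy 1.17.1, pandas 2.3.3 and matplotlib 3.10.9 were used.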

Additional observations from a re-analysis of the deposited data

Results flagged for a closer look

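In cells that no gate took, 64.7% of the Kcnj13 UMIs were found (44 of 68), of which 43 were in the GFP-positive library in 9 of 41 such cells. Kcnj13 is an inward rectifier of epithelia, and the leading genes of those 9 cells were Scgb3a1, Scgb3a2, Scgb1a1, Sftpa1 and Muc5b. Kcnq3, a Kv7 pore of neurons, had 52.6% of its UMIs there (40 of 76), of which 39 were in the GFP-negative library. These results stand out because the comparisons of gated classes do not use those cells.

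Kcna5 went opposite ways in a pair of classes. The log2 ratio of GFP-positive over RA was higher in cardiomyocytes than in endothelial cells by 6.69, with Kcna5 higher in GFP-positive cardiomyocytes and lower in GFP-positive endothelial cells. This difference was not tested, and the cardiomyocyte part rests on 31 UMIs against 0.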

How the results depend on the processing

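Of 154 counts of higher or lower members under the alternatives, 112 stayed within 1.5 times the main count and 42 moved. For single genes 370 of 375 values stayed, 4 moved and 1 reversed. No replicate could be left out and no value here has replicate error. No paired analysis was possible because each group had 1 library.

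For GFP-positive over RA cardiomyocytes, 5 members were higher. The count was 2 with 5 UMIs added, 3 with at least 50 UMIs, 17 with no minimum, 10 at 1.5-fold and 8 with cells weighted equally. The 3 lower members became 0 with at least 50 UMIs, 5 with no minimum and 1 in cells without pericyte-marker UMIs. Without mitochondrial and haemoglobin UMIs 6 members were higher and 3 lower, where 1672 and 299 of all features were.

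Over GFP-negative cardiomyocytes, 6 members were higher. The count was 3 at 0.5 times the gate cuts, 1 with 5 UMIs added, 3 with at least 50 UMIs, 12 with no minimum, 3 where the interval had to leave out equality and 2 without pericyte-marker UMIs. The 4 lower members became 1 with at least 50 UMIs and 18 with no minimum. The log2 ratio of Kcne1 there was 3.10 without pericyte-marker UMIs, a setting that left 30 GFP-negative cells with few Kcne1 UMIs. Kcnq1ot1 (0.74) was then short of 2-fold.

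For GFP-negative over RA cardiomyocytes, the 1 higher member became 0 with at least 50 UMIs, 7 with no minimum, 4 at 1.5-fold, 2 with equal weights and 3 without pericyte-marker UMIs. The 0 lower members became 1 with no minimum and 1 at 1.5-fold.

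For Nppa-gated cells, the 1 higher member became 0 at 2 times the gate cuts, 2 with cells of several gates assigned, 0 with at least 50 UMIs and 14 with no minimum. The 3 lower members became 5 at 0.5 times the cuts, 1 with 5 UMIs added, 1 with at least 50 UMIs, 5 with no minimum, 5 at 1.5-fold and 1 with the interval rule. Kcna5 reversed there from -1.76 to 0.041 with 5 UMIs added.

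For endothelial cells, the 12 higher members became 5 with 5 UMIs added, and the 7 lower ones 12 with 5 UMIs added, 4 with at least 50 UMIs and 20 with no minimum. For fibroblasts, the 8 higher members became 5 with at least 50 UMIs and 16 with no minimum, and the 2 lower ones 1 with at least 50 UMIs, 7 with no minimum and 4 at 1.5-fold. With 5 UMIs added the log2 ratio of Kcna5 in cardiomyocytes was 1.16 over RA and 0.87 over GFP-negative. A stricter minimum tests fewer genes. UMIs added to each sum pull every ratio toward that of a gene with 0 UMIs in both. For endothelial GFP-positive over RA that was a log2 ratio of -3.42, so moves with 5 UMIs added partly reflect the unequal totals. The cause of the other moves was not tested. The interval rule and the settings without Nppa-gated cells or pericyte-marker UMIs were chosen after seeing the data.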

Other observations

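Other members had part of their UMIs in the 312 cells that no gate took. The share was 41.2% for Kcnc4, a pore of fast Kv3 channels, 39.2% for the BK pore Kcnma1 and 33.1% for the leak channel Kcnk1. For the KChIP gene Kcnip4 and the Kv beta subunit Kcnab2 (23.7%) it was lower. These genes were named after their values were seen. What those cells are was not determined.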
